A study of Mus musculus with 16 samples.

Results

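The genes described are 35 genes of fatty acid and ketone oxidation, taken as all array probes whose gene name is 1 of the 35 symbols or an older symbol of it, such as Dci for Eci1, Hadhsc for Hadh and Mte1 for Acot2. All 35 were measured, by 50 probes, among 12330 genes tested on the arrays. The older symbol Them2 was accepted for Acot13 in addition to the older names of the rule. RNA from the hearts of 12 week old mice of 4 genotypes was hybridised to 16 arrays, 4 hearts per genotype, with heart RNA in the Cy5 channel. RNA pooled from whole C57BL/6 pups on postnatal day 1 was the reference in the Cy3 channel of every array. Wild type mice were MuRF1 +/+ MuRF2 +/+, and double null mice were MuRF1 -/- MuRF2 -/-. The MuRF1 null MuRF2 het mice were MuRF1 -/- MuRF2 +/-, and the MuRF1 het MuRF2 null mice were MuRF1 +/- MuRF2 -/-. The submitters call the groups strain-matched and the replicates biological. The strain and sex of the hearts and the way each gene was inactivated are not given in the sources used here. Values below are heart over reference signal on a log2 scale, so that 1 means 2 times the reference signal, and values are listed in the order of replicates 1 to 4.

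MuRF1 and MuRF2, encoded by Trim63 and Trim55, are muscle ring finger proteins. The adult heart draws most of its energy from fatty acids, which are taken up, joined to coenzyme A, carried into mitochondria as carnitine esters and shortened by the repeated cycle of beta oxidation. The electrons pass to ubiquinone through the electron transfer flavoprotein, and ketone bodies are a second fuel burned in the same organelle. The nuclear receptor PPAR alpha, with its coactivators and estrogen related receptors, is known to drive many of these genes in heart muscle.

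Trim63 averaged 2.63 in wild type hearts, -0.72 in double null, 1.94 in MuRF1 het MuRF2 null and -0.64 in MuRF1 null MuRF2 het hearts; the 2 groups labelled MuRF1 -/- had the lowest values. Trim55 did not pass in any comparison; where its probe lies relative to the deleted part is not given, so it checks nothing. All 7 cardiomyocyte markers were measured, and their mean ratio lay between 3.18 and 3.74 on all 16 arrays. Cy5 signal was well above background for 15171 to 16663 probes in wild type arrays, 6033 to 14500 in double null, 16127 to 17390 in MuRF1 het MuRF2 null and 6400 to 15064 in MuRF1 null MuRF2 het arrays. Double null 2 (6033 probes) and MuRF1 null MuRF2 het 1 (6400 probes) stood apart as the dimmest arrays. Wild type and double null arrays were mixed, 2 of each, on slides 1 and 3. Each heterozygous group filled a slide of its own (2 or 4), and for these groups the effect of slide and that of genotype cannot be told apart.

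In double null hearts, 16 of the 35 genes were lower than in wild type (adjusted p under 0.05, limma) and 0 were higher; at an unadjusted p under 0.05, 19 were lower and 1 higher. Of all genes tested, 12% were lower and 10.3% higher in the same comparison. The median difference of the 35 genes was -0.40, against 0.01 over all genes, and 30 of the 35 lay below 0. The genes that fell act at nearly every mitochondrial step: Acsl1 in activation, Cpt2 and Crat in the carnitine shuttle, Acadvl, Acadl, Hadha, Hadhb, Hadh and Acaa2 in beta oxidation, Decr1 and Eci1 for unsaturated chains, Etfdh in electron transfer, Acacb in malonyl-CoA synthesis, Acot2 and Ucp3, and Oxct1 for ketones. Neither peroxisomal gene passed. In bulk heart RNA, fewer cells of a type and less RNA per cell cannot be told apart. Each of the 16 kept a difference below 0 under all the processing alternatives that tested it. Acsl1, Cpt2, Crat, Acacb, Acadvl, Hadh and Eci1 passed in every alternative except slide 1 alone, and whichever single array was left out. Ucp3 did so too where it was tested. Its probe was above background on 10 arrays, so the filter requiring all 16 arrays left it out. With arrays only median centred, the median of all genes moved to -0.49 and that of the 35 genes to -1.58. In that setting 33 of the 35 were lower, beside 6877 of all 12330 genes. The share of called genes of the whole array that were lower was 54% here, 66.7% in the authors' log ratios and 99.7% under median centring. Scaling the ratios between arrays ended the calls of Acaa2, Etfdh, Oxct1, Hadhb and Acadl, and array brightness as a covariate those of Decr1, Acot2, Hadha, Hadhb and Acadl. On slide 1 alone, with 2 arrays a group, no gene of the 12329 tested passed, 2628 had an unadjusted p under 0.05, and the median of the 35 genes was -0.39. On slide 3 alone 19 of the 35 were lower, beside 1288 of 12327 genes tested, and the median of the 35 was -0.54.

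**Figure D1:**
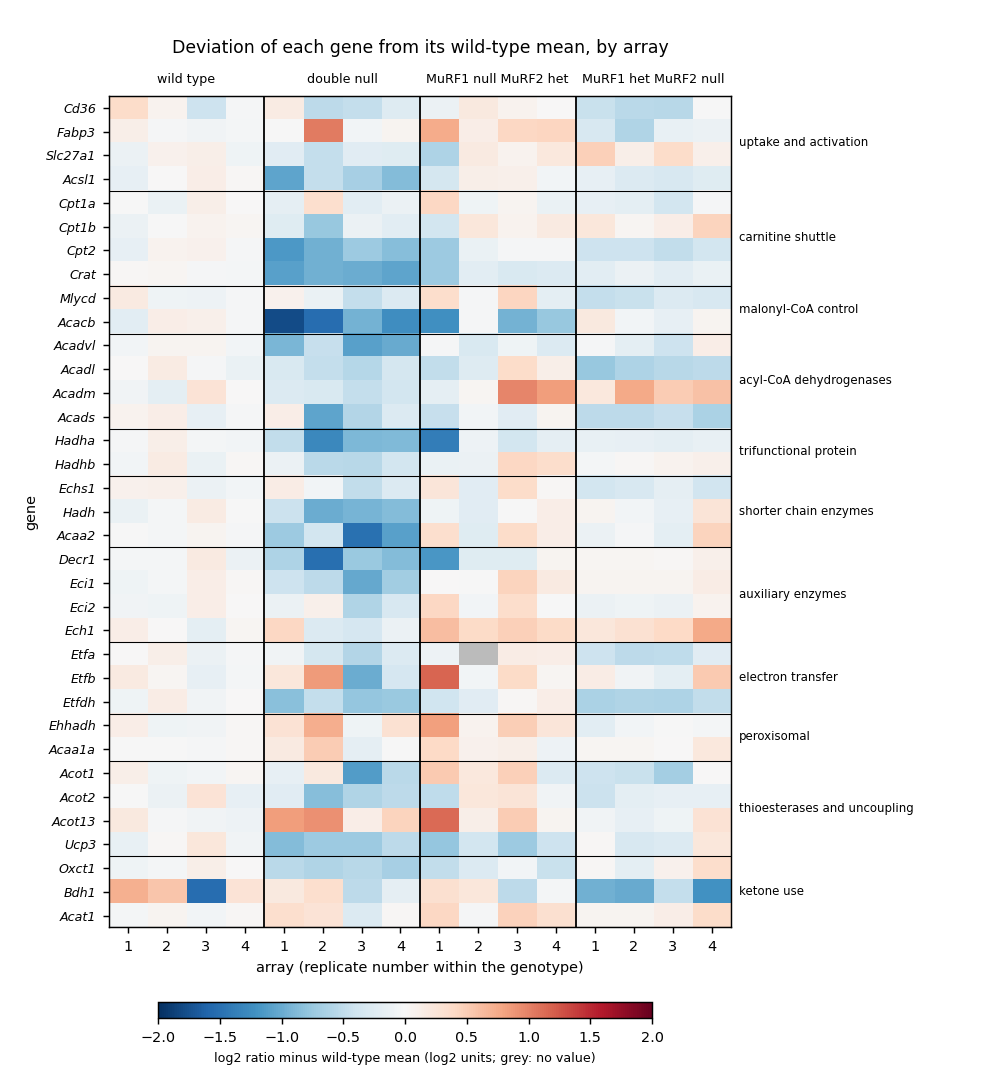
Each row is 1 of the 35 genes, grouped by step, and each column 1 of the 16 arrays; colour gives the log2 ratio minus that gene's wild type mean, and grey marks the missing Etfa value. Blue dominates the 4 double null columns, whose medians over the genes lie between -0.57 and -0.22, while the 4 MuRF1 null MuRF2 het columns have medians between -0.10 and 0.12.

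Array by array, the median deviation of the genes from their wild type means was -0.22, -0.47, -0.57 and -0.34 in the double null hearts. It was -0.10, -0.03, 0.12 and 0.03 in the MuRF1 null MuRF2 het hearts and -0.11, -0.17, -0.18 and 0.05 in the MuRF1 het MuRF2 null hearts. The 4 wild type arrays lay between -0.03 and 0.01. All 4 double null hearts were thus lower than every heart of the other genotypes on this measure, at the closest -0.22 against -0.18. Double null 3, the brightest of its group with 14500 probes above background, had the lowest median, and 34 of its 35 genes were below the wild type mean. Double null 2, the dimmest, had the next lowest median. The genes below the wild type mean numbered 24, 25 and 31 in double null 1, 2 and 4. In MuRF1 het MuRF2 null hearts they numbered up to 26, so this count did not separate the groups. Markers of endothelial cells moved in the same comparison: 7 of 9 were lower in double null hearts, and their mean ratio ranged from 0.07 to 0.20 in double null, 0.65 to 0.75 in wild type, 0.50 to 0.91 in MuRF1 het MuRF2 null and 0.19 to 0.59 in MuRF1 null MuRF2 het hearts. None of the 7 cardiomyocyte markers was higher, and 2 were lower, with a median difference of -0.06; their mean ratio was 3.52 to 3.70 in wild type and 3.18 to 3.57 in double null hearts. Of other lists, atrial markers were higher for 3 of 4 (median 0.95, mean ratio -1.78 to -1.41 in wild type and -0.79 to 1.00 in double null hearts), and fibroblast markers for 2 of 7 (median 0.39, -2.49 to -2.26 and -2.43 to -0.86). White adipocyte markers were higher for 1 of 5 (median 0.78), skeletal muscle markers lower for 2 and higher for 1 of 8 (median 0.66), and brown adipocyte markers lower for 1 of 3 (median 0.67). Of macrophage, erythroid and liver markers 0 passed by limma; at an unadjusted p under 0.05, 1 macrophage marker was lower and 1 erythroid and 1 liver marker were higher. On double null 2, the dimmest array, Col1a1 read -1.29 (the other double null arrays -4.93 to -4.38) and Sln -1.05 (-3.90 to -3.43). MuRF1 null MuRF2 het 1, also dim, was the highest of its group for both (-2.44 and -1.94). Nppa, by contrast, was 4.40 to 6.62 in double null and 2.08 to 2.43 in wild type hearts. The part of array brightness in the marker differences was not tested. Nor was the part of any of these lists in the fall of the oxidation genes.

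At the step of uptake and activation, Cd36 and Slc27a1 are carriers of fatty acids at the cell membrane, Fabp3 binds them in the heart cell's cytosol, and Acsl1 joins long chains to coenzyme A. Acsl1 was the gene of these 4 that fell in double null hearts. Acsl1 read 0.61, 0.77, 0.91 and 0.80 in wild type hearts, -0.29, 0.30, 0.10 and -0.09 in double null, 0.61, 0.50, 0.45 and 0.53 in MuRF1 het MuRF2 null and 0.42, 0.89, 0.87 and 0.72 in MuRF1 null MuRF2 het. The double null values were all below the wild type values, and the difference was -0.77 ± 0.12 (SE, adjusted p = 0.00087). All 3 Acsl1 probes were lower, by -0.77, -0.56 and -0.95. Slc27a1 stood at 0.70, 0.90, 0.93 and 0.72 in wild type hearts, 0.58, 0.34, 0.58 and 0.56 in double null, 1.28, 0.92, 1.17 and 0.91 in MuRF1 het MuRF2 null and 0.19, 0.99, 0.88 and 1.02 in MuRF1 null MuRF2 het. The double null arrays all lay below the wild type arrays, but the difference of -0.30 ± 0.15 did not pass (adjusted p = 0.162); it passed without MuRF1 null MuRF2 het 1, the array at 0.19 (adjusted p = 0.0322). Fabp3 read 5.18, 5.03, 4.99 and 5.02 in wild type hearts, 5.05, 6.10, 5.01 and 5.11 in double null, 4.74, 4.46, 4.91 and 4.94 in MuRF1 het MuRF2 null and 5.80, 5.20, 5.47 and 5.49 in MuRF1 null MuRF2 het. Double null 2 alone, the dimmest array, was over 6, and the other double null hearts overlapped wild type; the difference was 0.26 ± 0.20 (adjusted p = 0.348). Cd36 ranged from 1.95 to 2.86 over the 16 arrays and its groups overlapped, with a difference of -0.27 ± 0.17 (adjusted p = 0.255).

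In the carnitine shuttle, Cpt1b, the muscle form, and Cpt1a, the liver form, make long-chain acylcarnitines at the outer mitochondrial membrane. Cpt2 turns them back into acyl-CoA inside, and Crat exchanges short acyl groups, above all acetyl, between carnitine and coenzyme A. Crat read 1.67, 1.68, 1.61 and 1.60 in wild type hearts, 0.55, 0.68, 0.64 and 0.59 in double null, 1.43, 1.52, 1.43 and 1.51 in MuRF1 het MuRF2 null and 0.92, 1.43, 1.33 and 1.37 in MuRF1 null MuRF2 het. Crat had the smallest p of the 35 genes: the double null values lay between 0.55 and 0.68, below all values of the other genotypes, with a difference of -1.03 ± 0.09 (2.04-fold lower, adjusted p = 2.5e-05). Cpt2 measured 2.38, 2.61, 2.63 and 2.52 in wild type hearts, 1.39, 1.58, 1.82 and 1.69 in double null, 2.12, 2.12, 2.04 and 2.17 in MuRF1 het MuRF2 null and 1.82, 2.41, 2.51 and 2.52 in MuRF1 null MuRF2 het. Every double null value was below every wild type value, and the difference was -0.92 ± 0.14 (adjusted p = 0.000536). Cpt1b read 1.75, 1.86, 1.94 and 1.91 in wild type hearts, 1.63, 1.11, 1.75 and 1.66 in double null, 2.09, 1.91, 2.01 and 2.32 in MuRF1 het MuRF2 null and 1.51, 2.10, 1.94 and 2.05 in MuRF1 null MuRF2 het. The double null hearts were all below the wild type mean, but 1 reached the wild type range, and the difference of -0.33 ± 0.15 did not pass (adjusted p = 0.109). Its second probe differed by -0.56. Cpt1a, the dimmer form on these arrays, ranged from -1.24 to -0.46, and its difference was -0.04 (95% interval -0.32 to 0.25). The 2 genes that fell code for enzymes downstream of the outer membrane step. Neither outer membrane form passed, though the 95% interval of Cpt1b was -0.64 to -0.02. Whether the outer membrane step differed from the later ones was not tested.

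In the control of entry by malonyl-CoA, Acacb makes it at the mitochondrial surface, where it blocks carnitine palmitoyltransferase 1, and Mlycd degrades it. Acacb read 1.36, 1.71, 1.67 and 1.55 in wild type hearts, -0.22, 0.05, 0.62 and 0.33 in double null, 1.76, 1.52, 1.41 and 1.63 in MuRF1 het MuRF2 null and 0.35, 1.55, 0.62 and 0.81 in MuRF1 null MuRF2 het. The double null values were all below wild type, and at -1.38 ± 0.21 (2.60-fold lower, adjusted p = 0.000695) this was the largest difference of the 35 genes. MuRF1 null MuRF2 het hearts spread between the 2 groups, from 0.35 to 1.55. A second Acacb probe, above background on 6 of 16 arrays, differed by -0.17. Mlycd read 1.93, 1.67, 1.65 and 1.73 in wild type hearts, 1.83, 1.61, 1.28 and 1.48 in double null, 1.27, 1.30, 1.48 and 1.43 in MuRF1 het MuRF2 null and 2.10, 1.73, 2.18 and 1.55 in MuRF1 null MuRF2 het. These values overlapped, and the difference was -0.20 ± 0.14 (adjusted p = 0.306). The synthetic enzyme fell and its opponent did not pass, but whether the changes of the 2 genes differed was not tested.

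The acyl-CoA dehydrogenases start each turn of the cycle, Acadvl on very long, Acadl on long, Acadm on medium and Acads on short chains. Acadvl read 1.67, 1.77, 1.78 and 1.66 in wild type hearts, 0.80, 1.26, 0.64 and 0.71 in double null, 1.69, 1.52, 1.31 and 1.86 in MuRF1 het MuRF2 null and 1.69, 1.41, 1.64 and 1.45 in MuRF1 null MuRF2 het. Even the highest double null heart, replicate 2, was below the lowest wild type heart, and the difference was -0.87 ± 0.13 (adjusted p = 0.000675). Acadl ran at 1.91, 2.07, 1.88 and 1.78 in wild type hearts, 1.61, 1.44, 1.34 and 1.56 in double null, 1.15, 1.29, 1.35 and 1.38 in MuRF1 het MuRF2 null and 1.42, 1.65, 2.28 and 2.02 in MuRF1 null MuRF2 het. The double null hearts were lower without overlap by -0.42 ± 0.14 (adjusted p = 0.0466). This call held in 4 of the 16 refits that left out 1 array, those without a MuRF1 null MuRF2 het array, and the adjusted p reached 0.123 in the others, with differences from -0.46 to -0.37. The Acadl call was also lost in 10 of 16 processing alternatives, among them the authors' log ratios, offset 10, Cy5 alone and the replicate block. Acadm read 0.79, 0.67, 1.13 and 0.86 in wild type hearts, 0.58, 0.56, 0.39 and 0.50 in double null, 1.07, 1.62, 1.36 and 1.44 in MuRF1 het MuRF2 null and 0.68, 0.90, 1.83 and 1.70 in MuRF1 null MuRF2 het. Acads read 1.94, 2.01, 1.70 and 1.84 in wild type hearts, 2.00, 0.82, 1.28 and 1.60 in double null, 1.35, 1.34, 1.41 and 1.23 in MuRF1 het MuRF2 null and 1.41, 1.82, 1.64 and 1.92 in MuRF1 null MuRF2 het. Acadm was lower in every double null heart than in any wild type heart, yet its -0.35 ± 0.21 did not pass (adjusted p = 0.225), and neither did Acads with -0.45 ± 0.18 (adjusted p = 0.0875). Double null 1 sat at the top of the Acads range in wild type; without it Acads passed (adjusted p = 0.0132). Acadvl was the one of the 4 that passed whichever array was left out.

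Hadha and Hadhb are the alpha and beta subunits of the mitochondrial trifunctional protein, which carry out the remaining 3 reactions of the cycle on long chains. Hadha read 2.26, 2.41, 2.25 and 2.23 in wild type hearts, 1.80, 1.00, 1.39 and 1.41 in double null, 2.14, 2.13, 2.10 and 2.14 in MuRF1 het MuRF2 null and 0.91, 2.19, 1.92 and 2.11 in MuRF1 null MuRF2 het. The double null values were all below wild type, by -0.89 ± 0.22 (adjusted p = 0.0106). MuRF1 null MuRF2 het 1 read 0.91, the lowest value of all, next to 1.92 or more in the others of its group. The other 2 Hadha probes were not well above background on any array. Hadhb read 2.02, 2.24, 1.94 and 2.10 in wild type hearts, 1.95, 1.53, 1.51 and 1.71 in double null, 2.03, 2.10, 2.14 and 2.17 in MuRF1 het MuRF2 null and 1.94, 1.95, 2.48 and 2.42 in MuRF1 null MuRF2 het. Here double null 1 fell inside the wild type range and the difference was smaller, -0.40 ± 0.13 (adjusted p = 0.0392). The Hadhb call was lost on leaving out any wild type array, double null 2, 3 or 4, or MuRF1 het MuRF2 null 2 or 3, with adjusted p up to 0.112 and differences from -0.49 to -0.34. It was also lost in 7 of 16 processing alternatives, among them the authors' log ratios and the replicate block.

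For medium and short chains, Echs1 hydrates, Hadh oxidises and Acaa2 cleaves the intermediates in the mitochondrial matrix. Hadh read 1.09, 1.18, 1.38 and 1.21 in wild type hearts, 0.79, 0.22, 0.29 and 0.36 in double null, 1.27, 1.16, 1.06 and 1.47 in MuRF1 het MuRF2 null and 1.14, 1.00, 1.21 and 1.36 in MuRF1 null MuRF2 het. Double null 1 was the highest of its group and still below all wild type hearts; the difference was -0.80 ± 0.13 (adjusted p = 0.000771). Acaa2 read 1.54, 1.51, 1.61 and 1.52 in wild type hearts, 0.83, 1.19, 0.06 and 0.46 in double null, 1.44, 1.53, 1.36 and 1.99 in MuRF1 het MuRF2 null and 1.89, 1.30, 1.91 and 1.69 in MuRF1 null MuRF2 het. The double null hearts spread widely, from 0.06 to 1.19, without reaching the other groups, and the difference was -0.91 ± 0.20 (adjusted p = 0.00626). Echs1 ranged from 0.89 to 1.75 over all arrays with overlapping groups, and its difference was -0.17 (95% interval -0.46 to 0.12). The last 2 reactions of this set thus had lower transcripts in double null hearts.

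Decr1, Eci1, Eci2 and Ech1 are auxiliary enzymes that rearrange double bonds so that unsaturated fatty acids can enter the cycle. Decr1 read 1.46, 1.46, 1.68 and 1.39 in wild type hearts, 0.88, -0.01, 0.75 and 0.64 in double null, 1.54, 1.54, 1.52 and 1.60 in MuRF1 het MuRF2 null and 0.34, 1.25, 1.25 and 1.56 in MuRF1 null MuRF2 het. Double null 2, the dimmest array, was lowest at -0.01, where the probe was not well above background, and the other 3 were also below wild type; the difference was -0.93 ± 0.21 (adjusted p = 0.00769). It did not pass in the authors' log ratios or with array brightness as a covariate. Eci1 came to 1.33, 1.38, 1.55 and 1.44 in wild type hearts, 1.01, 0.89, 0.39 and 0.72 in double null, 1.48, 1.48, 1.48 and 1.57 in MuRF1 het MuRF2 null and 1.42, 1.41, 1.87 and 1.60 in MuRF1 null MuRF2 het. All 4 double null hearts were lower than all 12 others, and against wild type the difference was -0.67 ± 0.12 (adjusted p = 0.00215). Ech1 read 2.60, 2.48, 2.28 and 2.51 in wild type hearts, 2.88, 2.20, 2.13 and 2.36 in double null, 2.69, 2.77, 2.87 and 3.23 in MuRF1 het MuRF2 null and 3.08, 2.86, 2.95 and 2.85 in MuRF1 null MuRF2 het. Double null overlapped wild type (-0.08 ± 0.15, adjusted p = 0.74). Eci2 ranged from 0.06 to 1.08 and did not pass (-0.24 ± 0.14, adjusted p = 0.215).

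In electron transfer, Etfa and Etfb form the flavoprotein that takes electrons from the dehydrogenases, and Etfdh passes them to ubiquinone. Etfdh read 2.29, 2.52, 2.30 and 2.38 in wild type hearts, 1.53, 1.89, 1.59 and 1.62 in double null, 1.74, 1.77, 1.76 and 1.88 in MuRF1 het MuRF2 null and 1.97, 2.14, 2.39 and 2.51 in MuRF1 null MuRF2 het. Double null and MuRF1 het MuRF2 null hearts were both below wild type without overlap, double null by -0.71 ± 0.11 (adjusted p = 0.000755). A second, dimmer Etfdh probe differed from wild type by -0.60 in double null and -0.13 in MuRF1 het MuRF2 null hearts. Neither difference passed in a fit over probes. Etfa read 0.74, 0.86, 0.62 and 0.72 in wild type hearts, 0.67, 0.39, 0.16 and 0.47 in double null, 0.33, 0.22, 0.23 and 0.51 in MuRF1 het MuRF2 null and 0.64, 0.89 and 0.87 in MuRF1 null MuRF2 het. The second MuRF1 null MuRF2 het array has no Etfa value because its spot was marked irregular, so that group has n = 3. Double null 1 overlapped wild type, and -0.31 ± 0.11 fell just short of the threshold (adjusted p = 0.0514); it passed without double null 1, MuRF1 null MuRF2 het 1 or MuRF1 null MuRF2 het 2 (lowest adjusted p = 0.0208). Etfb ranged from 0.73 to 2.89, both extremes lying in mutant groups, and its difference was -0.06 (95% interval -0.74 to 0.61).

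Of the peroxisomal genes, Ehhadh is the peroxisomal bifunctional enzyme and Acaa1a a peroxisomal thiolase. Ehhadh read -1.15, -1.36, -1.35 and -1.26 in wild type hearts, -0.99, -0.55, -1.37 and -0.97 in double null, -1.49, -1.34, -1.29 and -1.32 in MuRF1 het MuRF2 null and -0.46, -1.21, -0.79 and -1.04 in MuRF1 null MuRF2 het. Acaa1a read 0.35, 0.35, 0.34 and 0.38 in wild type hearts, 0.54, 0.86, 0.18 and 0.35 in double null, 0.40, 0.40, 0.37 and 0.57 in MuRF1 het MuRF2 null and 0.76, 0.44, 0.48 and 0.26 in MuRF1 null MuRF2 het. Neither passed in double null hearts. The Ehhadh difference was 0.31 ± 0.16 (adjusted p = 0.163) and that of Acaa1a 0.13 ± 0.13 (adjusted p = 0.482), both turning below 0 when arrays were only median centred. Ehhadh passed as higher without double null 3 (adjusted p = 0.0406). The other 2 Acaa1a probes pointed the other way, at -0.17 and -0.33, and the latter passed in a fit over probes (adjusted p = 0.0455). Whether the peroxisomal genes differed from the mitochondrial ones was not tested.

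Among thioesterases and the uncoupling protein, Acot1 (cytosolic), Acot2 (mitochondrial) and Acot13 split acyl-CoA, and Ucp3 is a mitochondrial carrier of muscle. Acot1 and Acot2 are near-identical copies, and signal shared between their probes cannot be told apart. Ucp3 read 0.48, 0.65, 0.85 and 0.56 in wild type hearts, -0.24, -0.09, -0.10 and 0.10 in double null, 0.65, 0.31, 0.35 and 0.86 in MuRF1 het MuRF2 null and -0.14, 0.27, -0.10 and 0.21 in MuRF1 null MuRF2 het. The Ucp3 signal was not well above background on any double null array, so the size of its difference is uncertain. By Cy5 signal it was 1.56-fold lower than in wild type and 1.38-fold lower than in MuRF1 het MuRF2 null. The fitted difference from wild type was -0.72 ± 0.13 (adjusted p = 0.00224). The Cy5 folds compare the bright group's normalised mean with, per array, the higher of the dim probe's signal and the lowest signal among probes above background. For the double null arrays this averaged the same as the probe's own signal (6.17). The Cy5 folds are therefore estimates without a sampling error, not lower bounds. They are open to dye bias because no dyes were swapped. Acot2 read 1.10, 1.00, 1.39 and 0.94 in wild type hearts, 0.89, 0.26, 0.51 and 0.59 in double null, 0.68, 0.92, 0.94 and 0.94 in MuRF1 het MuRF2 null and 0.60, 1.33, 1.37 and 1.04 in MuRF1 null MuRF2 het. Double null was lower without overlap by -0.55 ± 0.16 (adjusted p = 0.0263), a call lost without wild type 3 or double null 2 (adjusted p up to 0.0883). Acot13 gave 3.12, 2.91, 2.86 and 2.83 in wild type hearts, 3.76, 3.85, 3.07 and 3.37 in double null, 2.86, 2.76, 2.85 and 3.22 in MuRF1 het MuRF2 null and 4.07, 3.05, 3.44 and 2.99 in MuRF1 null MuRF2 het. This was the gene with the highest difference, 0.58 ± 0.21 (adjusted p = 0.057), which turned to -1.03 under median centring, and double null 3 still overlapped wild type; it passed without double null 3 or MuRF1 null MuRF2 het 1 (lowest adjusted p = 0.0148). Acot1 ranged from -1.96 to -0.32 and did not pass (-0.41 ± 0.23, adjusted p = 0.207).

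In ketone use, Bdh1 oxidises beta-hydroxybutyrate, Oxct1 activates acetoacetate, which commits it to oxidation outside the liver, and Acat1 cleaves acetoacetyl-CoA. Oxct1 read 2.92, 2.96, 3.11 and 3.00 in wild type hearts, 2.46, 2.40, 2.44 and 2.34 in double null, 3.02, 2.81, 3.09 and 3.35 in MuRF1 het MuRF2 null and 2.50, 2.72, 2.95 and 2.56 in MuRF1 null MuRF2 het. The double null values lay in a narrow band below all wild type values, and the difference was -0.59 ± 0.11 (adjusted p = 0.00242). All 3 Oxct1 probes were lower, and -0.59 was the smallest of the 3 differences. Acat1 read 0.68, 0.77, 0.67 and 0.75 in wild type hearts, 1.06, 1.00, 0.44 and 0.74 in double null, 0.78, 0.77, 0.86 and 1.08 in MuRF1 het MuRF2 null and 1.14, 0.69, 1.18 and 1.04 in MuRF1 null MuRF2 het. Acat1 overlapped between the groups and differed by 0.09 ± 0.13 (adjusted p = 0.624), turning below 0 under median centring. Bdh1 ranged from -1.12 to 1.12, and both extremes were wild type hearts, replicates 3 and 1. Its double null difference was -0.05 (95% interval -0.85 to 0.75).

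**Figure D2:**
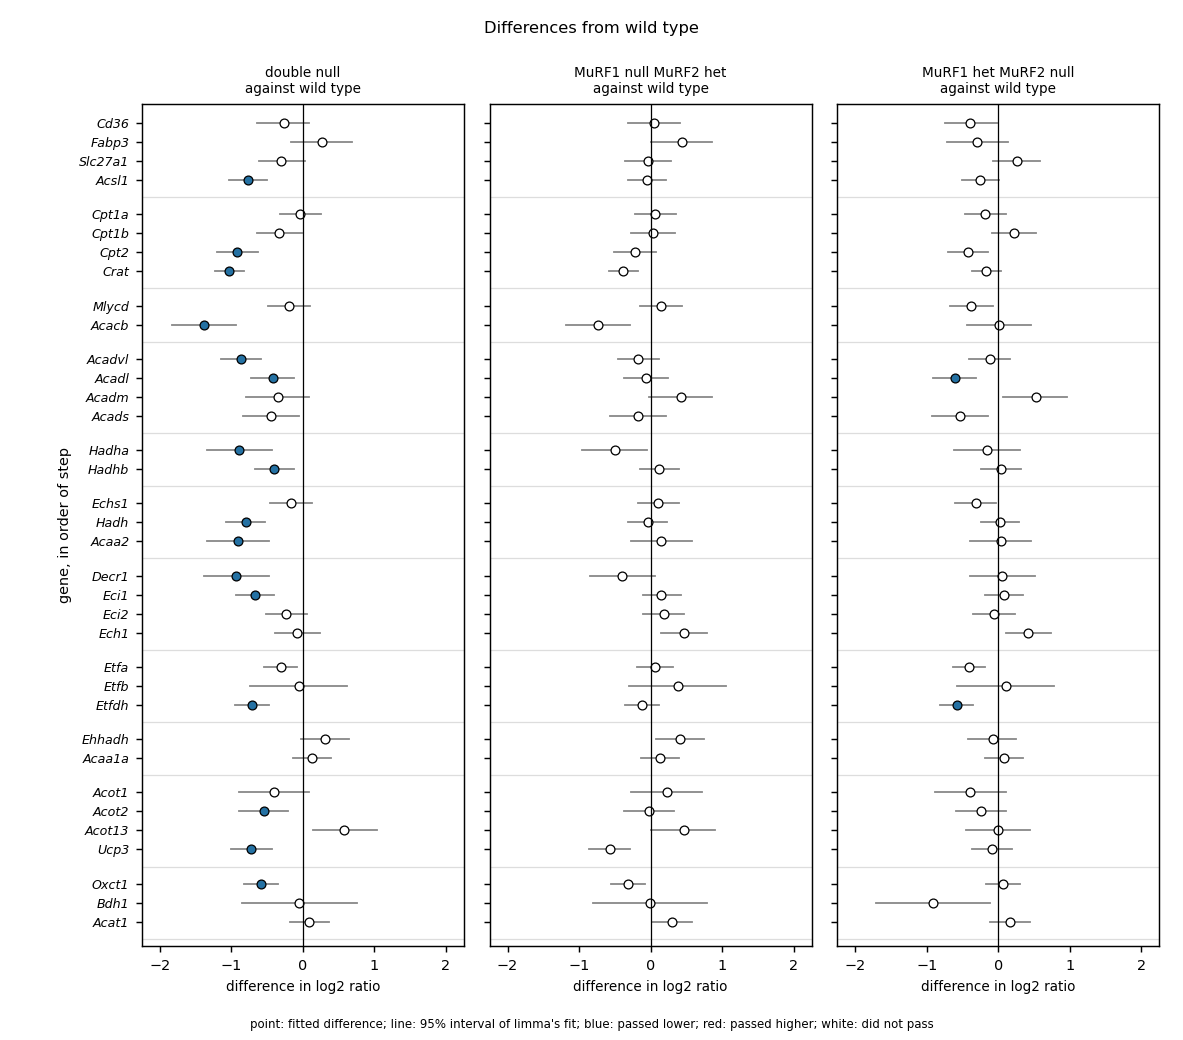
Differences in log2 ratio from wild type with 95% intervals, by step, for hearts of the 3 mutant genotypes, double null first, then MuRF1 null MuRF2 het, then MuRF1 het MuRF2 null (n = 4 each, Etfa n = 3 in MuRF1 null MuRF2 het); filled points passed an adjusted p of 0.05. There are 16 filled points for double null, from -1.38 (Acacb) to -0.40 (Hadhb), 0 for MuRF1 null MuRF2 het and 2 for MuRF1 het MuRF2 null.

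With 1 MuRF2 allele left, no gene passed. In MuRF1 null MuRF2 het against wild type hearts, 0 of the 35 genes were lower and 0 higher by limma (0.714% and 0.316% of all genes, so that 69.3% of the called genes were lower, and 99.8% under median centring), and 5 were lower and 5 higher at an unadjusted p under 0.05. The median difference was 0.04, and 16 of 35 lay below 0. Under array weights, 3 passed lower and 5 higher, beside 1080 lower and 1154 higher of all 12330 genes. The lowest were Acacb (-0.74 ± 0.21, adjusted p = 0.0899), Ucp3 (-0.57 ± 0.13, adjusted p = 0.0506), Hadha (-0.50 ± 0.22, adjusted p = 0.183), Decr1 (-0.40 ± 0.21, adjusted p = 0.265) and Crat (-0.38 ± 0.09, adjusted p = 0.0588). Crat, Hadha and Ucp3 lay below wild type without overlap on all 4 arrays, Ech1 (0.47 ± 0.15, adjusted p = 0.109) and Fabp3 (0.44 ± 0.20, adjusted p = 0.205) lay above it without overlap, and the Crat value was lowest on the dimmest array of the group. Leaving out MuRF1 null MuRF2 het 2 gave 3 genes lower (Acacb, Crat and Ucp3) and 2 higher (Ehhadh and Acat1), beside 784 lower and 723 higher of all 12330 genes.

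With 1 MuRF1 allele left, 2 of the 35 genes were lower than in wild type and 0 higher, beside 1.28% and 0.673% of all genes (65.6% of called genes lower, 82.6% in the authors' log ratios and 99.3% under median centring), and the median difference was -0.09. At an unadjusted p under 0.05, 9 were lower and 2 higher. Etfdh was lower by -0.58 ± 0.11 (adjusted p = 0.0133) and Acadl by -0.61 ± 0.14 (adjusted p = 0.0383), in each case with all 4 hearts below all wild type hearts. Acadl depended on processing: its difference was 0.02 when the Cy5 channel was used alone. Its call was also lost without any wild type array, any MuRF1 het MuRF2 null array or double null 4, with adjusted p up to 0.133. The Etfdh call was lost without wild type 2 or MuRF1 het MuRF2 null 1 (adjusted p up to 0.0582). The count of lower genes was then 0, beside 51 and 68 of 12329 genes. Without MuRF1 null MuRF2 het 1 that count was 4, beside 251 of 12329. Etfdh also depended on processing. Its call was lost in 6 of 13 alternatives: the authors' log ratios and processed values, offset 10, median centring, scaling and the mean over probes. A second Etfdh probe differed by -0.13 and did not pass in a fit over probes. Acacb, which changed most in double null hearts, differed by 0.01 ± 0.21 here (95% interval -0.44 to 0.46).

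The double null hearts were next compared with each heterozygous group, which asks what the loss of the last allele changes. These comparisons share the double null arrays with each other and with the comparison above, so their results are not independent. Against MuRF1 null MuRF2 het, 8 of the 35 genes were lower and 0 higher, while 0.187% of all genes were lower and 0.162% higher. At an unadjusted p under 0.05, 21 were lower and 0 higher. The 8 make up 34.8% of the 23 genes of the whole array that were lower, and 22.9% of the 35. They were Acaa2 (-1.06 ± 0.20, adjusted p = 0.0381), Eci1 (-0.82 ± 0.12, adjusted p = 0.0114), Hadh (-0.76 ± 0.13, adjusted p = 0.0213), Acsl1 (-0.72 ± 0.12, adjusted p = 0.0252), Acadvl (-0.70 ± 0.13, adjusted p = 0.0381), Cpt2 (-0.69 ± 0.14, adjusted p = 0.0381), Crat (-0.65 ± 0.09, adjusted p = 0.0111) and Etfdh (-0.59 ± 0.11, adjusted p = 0.0381). For Cpt2, MuRF1 null MuRF2 het 1 at 1.82 met the highest double null heart, also at 1.82. The other Acsl1 probes differed by -0.41 and -0.43 and did not pass in a fit over probes. The Acsl1 and Etfdh calls were lost with the mean over probes. The median of the 35 was -0.38, against -0.00 over all genes, and 34 lay below 0, Acot13 (0.12) being the exception. Of the 9 endothelial markers 0 passed in this comparison by limma, 1 was lower at an unadjusted p under 0.05, and their median was -0.20; of the 7 cardiomyocyte markers 0 passed, with a median of -0.12, and 2 were lower at an unadjusted p under 0.05.

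This count rested on few arrays. It was 0 without double null 4, without MuRF1 null MuRF2 het 3 or without MuRF1 null MuRF2 het 4, with 3 of all genes lower each time. Without double null 3 it was 2, beside 5 of all genes. Without MuRF1 null MuRF2 het 1, the dim array, it was 16, beside 223 of all genes. It was 4 or 5 without wild type 1, 2 or 4, MuRF1 het MuRF2 null 1 or 2, or MuRF1 null MuRF2 het 2, beside 9 to 12 of all genes. The count over all genes thus moved along with it. The differences themselves moved little: over the 16 refits that of Crat stayed between -0.76 and -0.59, that of Eci1 between -0.91 and -0.70 and that of Hadh between -0.89 and -0.70. Leaving out both dimmest arrays together, an alternative added after the data were seen, gave 14 of the 35 genes lower, beside 256 of all genes.

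**Figure D3:**
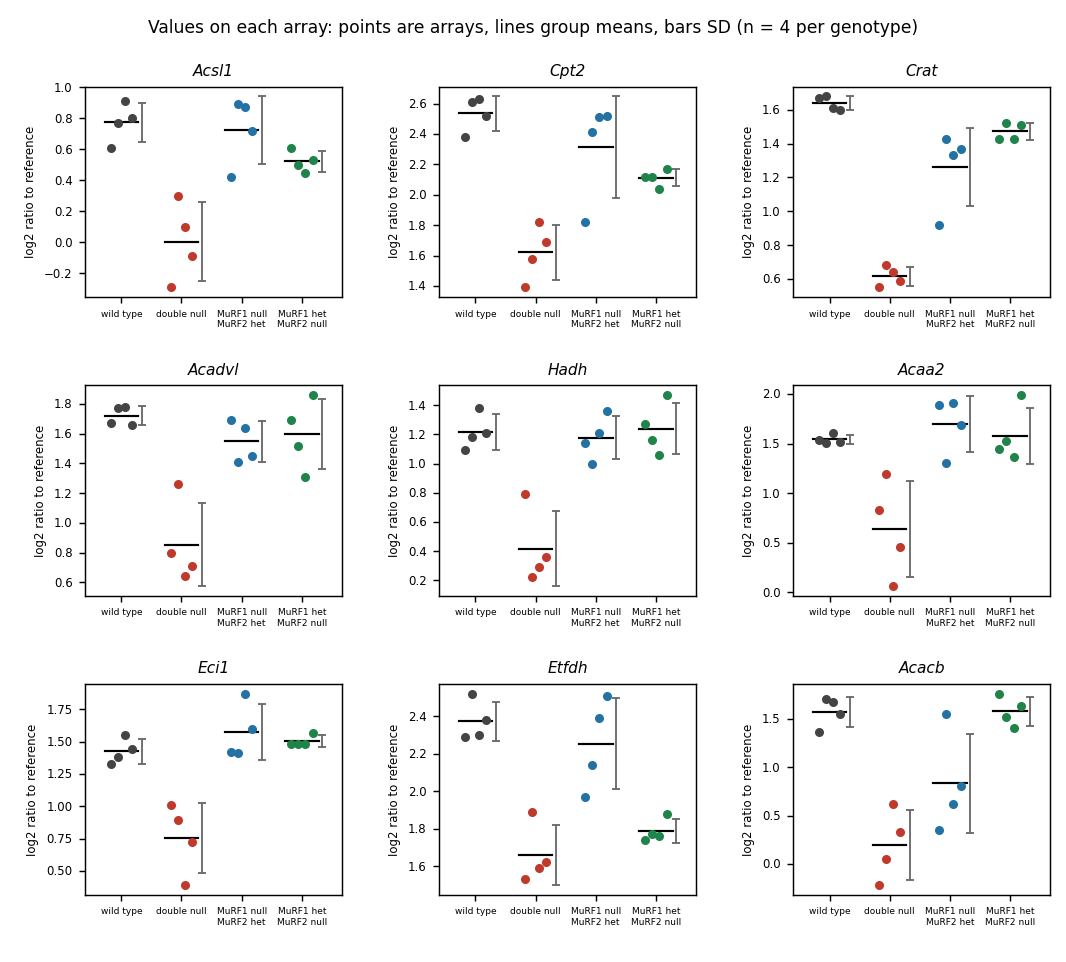
Log2 ratio to the reference on each array for the 8 genes lower in double null than in MuRF1 null MuRF2 het hearts, and for Acacb; points are arrays, horizontal lines group means and bars the SD (n = 4 per genotype). Crat shows the tightest double null cluster, from 0.55 to 0.68, and Etfdh the one panel in which MuRF1 het MuRF2 null, from 1.74 to 1.88, sits at the double null level. A second Etfdh probe, not shown, differed by -0.47 in double null against MuRF1 het MuRF2 null and did not pass.

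Against MuRF1 het MuRF2 null, 17 of the 35 genes were lower in double null hearts and 2 higher, with 12.7% of all genes lower and 13.6% higher. Of called genes 48.2% were lower, and 66.2% in the authors' log ratios. The median difference was -0.31, against 0.01 over all genes. The largest were Acacb (-1.38 ± 0.21, adjusted p = 0.000509), Decr1 (-0.98 ± 0.21, adjusted p = 0.00431), Acaa2 (-0.94 ± 0.20, adjusted p = 0.0039), Acadm (-0.87 ± 0.21, adjusted p = 0.00738) and Crat (-0.86 ± 0.09, adjusted p = 8.25e-05). Of the 17, 13 were also lower against wild type; the others were Slc27a1 (-0.56 ± 0.15), Cpt1b (-0.55 ± 0.15), Acadm and Ech1 (-0.50 ± 0.15). Etfdh, Acadl and Acot2 were lower against wild type but did not pass here, with differences of -0.13 ± 0.11, 0.19 ± 0.14 and -0.31 ± 0.16. Of the genes lower, Slc27a1, Hadha, Hadhb and Ech1 each lost the call on leaving out 1 array: Slc27a1 without MuRF1 het MuRF2 null 1, Hadha without double null 2 or MuRF1 het MuRF2 null 1 or 2, Hadhb without double null 2 or MuRF1 het MuRF2 null 3 or 4, and Ech1 without double null 2 or 3 or MuRF1 het MuRF2 null 4 (highest adjusted p 0.0767). With array brightness as a covariate 12 genes were lower, and Slc27a1, Cpt1b, Cpt2, Acadm, Hadha, Hadhb and Decr1 lost their calls. Slc27a1, Hadha and Decr1 also did not pass in the authors' log ratios. Only Acacb, Acaa2 and Ucp3 passed in every alternative that tested them and whichever array was left out. Electron transfer and the peroxisome were the steps with no gene lower. Endothelial markers also differed here, 7 of 9 lower with a median of -0.59, as did 2 of 7 cardiomyocyte markers with a median of -0.24, and their part was not tested.

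The 2 genes higher in double null than in MuRF1 het MuRF2 null hearts were Fabp3 (0.56 ± 0.20, adjusted p = 0.0496) and Acot13 (0.59 ± 0.21, adjusted p = 0.0493). Both sat at the threshold and both turned below 0 under median centring, Fabp3 also with the Cy5 channel alone (-0.16) and with array brightness as a covariate (-0.01). Neither held on leaving out single arrays: Fabp3 passed in 4 of 16 refits and Acot13 in 5 of 16. Without double null 2, the array at 6.10, the Fabp3 difference was 0.30. Fabp3 lies on chromosome 4, as Trim63 does, 4.01 Mb from it.

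The heterozygous groups also differed from each other. MuRF1 null MuRF2 het hearts had 3 genes lower and 5 higher than MuRF1 het MuRF2 null hearts, beside 3.98% and 4.56% of all genes (46.6% of called genes lower, 62.1% in the authors' log ratios and 34.8% under median centring), and the median difference was 0.20. Lower were Acacb (-0.75 ± 0.21, adjusted p = 0.0415), Ucp3 (-0.48 ± 0.13, adjusted p = 0.0376) and Oxct1 (-0.38 ± 0.11, adjusted p = 0.0448). Higher were Fabp3 (0.73 ± 0.20, adjusted p = 0.0359), Acadl (0.55 ± 0.14, adjusted p = 0.0309), Mlycd (0.52 ± 0.14, adjusted p = 0.0328), Etfa (0.48 ± 0.12, adjusted p = 0.0269) and Etfdh (0.46 ± 0.11, adjusted p = 0.0234). All 5 that were higher turned below 0 under median centring, and each of the 8 lost its call on leaving out at least 1 array, by which the counts ranged from 0 to 3 lower and 0 to 8 higher. Each group was on a slide of its own, and the MuRF1 het MuRF2 null arrays were read with another version of the scanning software, so genotype, slide and version cannot be told apart here. Of the 9 endothelial markers 5 were lower in this comparison, with a median of -0.39, and of the 7 cardiomyocyte markers 1 was lower and 2 higher, with a median of -0.12; their part was not tested.

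**Figure D4:**
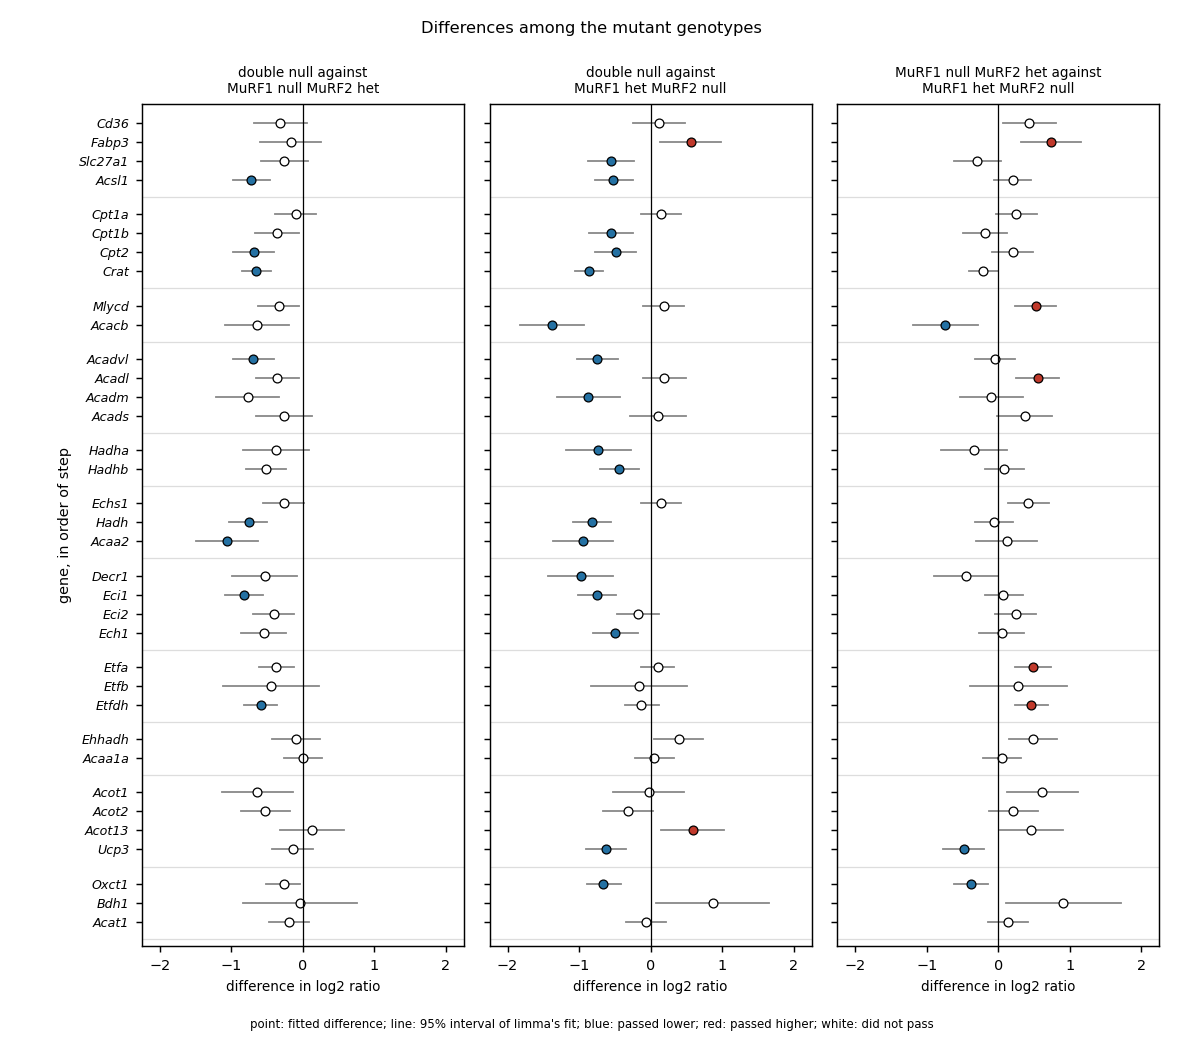
Differences in log2 ratio among the 3 mutant genotypes with 95% intervals, by step (n = 4 each, Etfa n = 3 in MuRF1 null MuRF2 het); filled points passed an adjusted p of 0.05, blue lower and red higher. Double null has 8 lower points against MuRF1 null MuRF2 het, and 17 lower and 2 higher points against MuRF1 het MuRF2 null.

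Regulators of the pathway were read from a separate list of 20 genes, of which 19 were measured, all but Ppard. In double null against wild type hearts 9 were lower (47.4%, beside 12% of all genes) and 0 higher by limma, also at an unadjusted p under 0.05 (12 lower), with a median of -0.37. Ppara read 0.64, 0.87, 0.64 and 0.69 in wild type hearts, 0.10, 0.13, 0.14 and 0.06 in double null, 0.52, 0.56, 0.51 and 0.33 in MuRF1 het MuRF2 null and 0.28, 0.51, 0.22 and 0.29 in MuRF1 null MuRF2 het. Ppara, which encodes PPAR alpha, was lower in double null hearts without overlap with any other group (-0.60 ± 0.08 from wild type, adjusted p = 0.000351). It was also lower in MuRF1 null MuRF2 het than in wild type hearts (-0.39 ± 0.08, adjusted p = 0.0383), where no oxidation gene passed, and did not pass in MuRF1 het MuRF2 null hearts (-0.23 ± 0.08, adjusted p = 0.168). Lpin1 read 0.76, 0.92, 0.86 and 0.91 in wild type hearts, -0.28, -0.09, 0.02 and -0.10 in double null, 0.86, 1.02, 1.07 and 0.65 in MuRF1 het MuRF2 null and -0.10, 0.95, 0.57 and 0.60 in MuRF1 null MuRF2 het. Lpin1 encodes a phosphatidate phosphatase that also acts as a coactivator of PPAR alpha; double null values were all below wild type, by -0.97 ± 0.16 (adjusted p = 0.00108), and MuRF1 null MuRF2 het 1 at -0.10 fell among them.

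Esrrb read 1.13, 1.08, 0.99 and 1.00 in wild type hearts, 0.15, -0.08, 0.45 and 0.26 in double null, 0.97, 1.35, 1.23 and 1.12 in MuRF1 het MuRF2 null and 0.23, 0.98, 0.37 and 0.48 in MuRF1 null MuRF2 het. This nuclear receptor gene was lower in double null hearts by -0.86 ± 0.14 (adjusted p = 0.00112), but its signal was well above background on only 1 of the 4 double null arrays, so the size of the difference is uncertain. Ppargc1b read 0.05, 0.34, 0.49 and 0.13 in wild type hearts, -0.92, -0.46, -0.31 and -0.50 in double null, 0.65, 0.54, 0.47 and 0.56 in MuRF1 het MuRF2 null and -0.34, 0.03, -0.42 and -0.47 in MuRF1 null MuRF2 het. The coactivator gene Ppargc1b, above background on 3 of 4 double null arrays as Ppara was, was lower without overlap by -0.80 ± 0.14 (adjusted p = 0.00123). The other regulators that fell, named after their values were seen, were Ppargc1a (-0.83 ± 0.19), Prkaa2 (-0.81 ± 0.23), Rxrg (-0.65 ± 0.14), Ncor1 (-0.59 ± 0.13) and Sirt3 (-0.34 ± 0.11), of which Ncor1 encodes a corepressor. Esrra, a related receptor gene likewise added, did not pass (-0.19 ± 0.12, adjusted p = 0.255). Against MuRF1 null MuRF2 het, 0 regulators passed by limma in either direction (5 were lower and 0 higher at an unadjusted p under 0.05), and against MuRF1 het MuRF2 null 10 were lower and 1 higher, beside 12.7% and 13.6% of all genes.

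**Figure D5:**
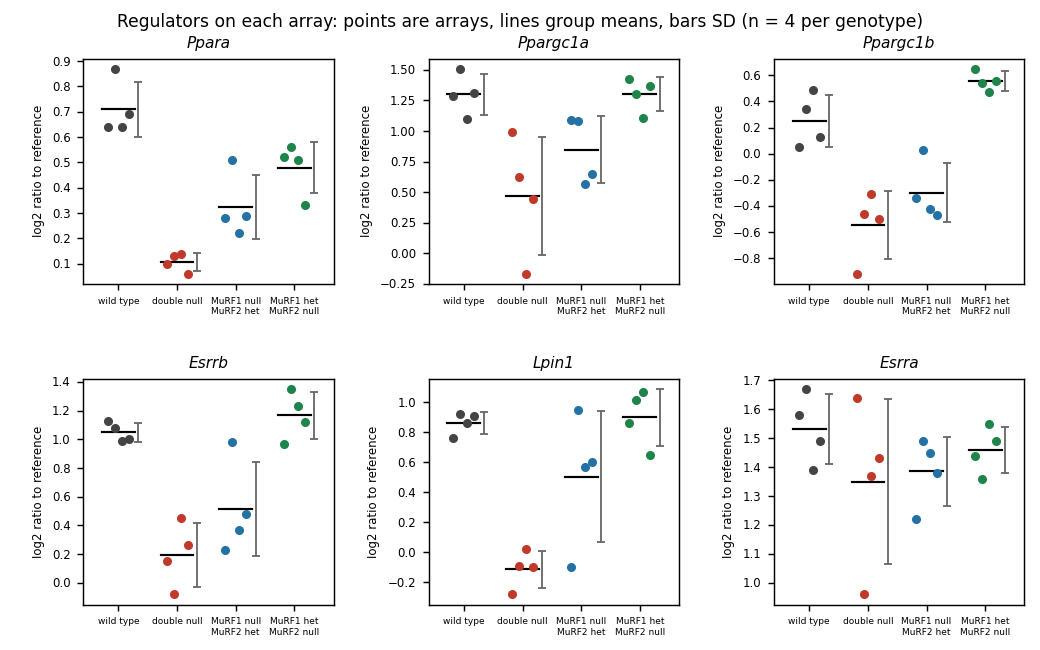
Log2 ratio to the reference on each array for 6 regulators; points are arrays, horizontal lines group means and bars the SD (n = 4 per genotype). Ppara lies between 0.06 and 0.14 in double null hearts and between 0.64 and 0.87 in wild type hearts.

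Other enzymes and transporters of the pathway came from a further list of 45 genes, of which 36 were measured. In double null against wild type hearts 4 were lower and 4 higher (11.1% each, near the 12% and 10.3% of all genes), with a median of -0.06; whether they differed from the 35 genes was not tested. Among them Bdh2 (0.44 ± 0.09, adjusted p = 0.00331) and Acot10 (0.33 ± 0.07, adjusted p = 0.00718) were higher, and the carnitine transporter gene Slc22a5 (-0.28 ± 0.06, adjusted p = 0.00724) was lower. Against MuRF1 null MuRF2 het 0 of the 36 passed by limma, with 6 lower and 4 higher at an unadjusted p under 0.05, and against MuRF1 het MuRF2 null 3 were lower and 8 higher.

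The promoters of 29 of the 35 genes, 250 bases before to 50 after the start site in RefSeq's GRCm38.p6 annotation, were searched on both strands. PPAR alpha with its partner binds a direct repeat of AGGTCA spaced by 1 base, and estrogen related receptors bind TCAAGGTCA, which itself holds AGGTCA. Neither the direct repeat, also with any base at position 4 of each copy, nor TCAAGGTCA was found in these 29 windows; the shares among 8891 tested genes were 0.0337%, 0.349% and 0.315%. The single AGGTCA was in 7 of 29 windows (24.1%), among 14.9% of tested genes, and in 3 of 13 windows of genes that fell in double null hearts (23.1%). The windows upstream of Acadvl and Ucp3, which fell, and of Echs1, which did not pass, are shown with AGGTCA in capitals, 5′ to 3′ on the strand of the gene.
Acadvl, chr11:70015493-70015532, minus strand: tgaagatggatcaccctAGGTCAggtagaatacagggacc
Ucp3, chr7:100472825-100472864, plus strand: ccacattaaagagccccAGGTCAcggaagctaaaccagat
Ucp3, chr7:100472930-100472969, plus strand: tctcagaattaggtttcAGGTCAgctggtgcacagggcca
Echs1, chr7:140116482-140116521, minus strand: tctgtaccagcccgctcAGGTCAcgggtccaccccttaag
Counted from the start site, AGGTCA begins at position -87 in Acadvl, -149 and -44 in Ucp3 and -83 in Echs1. A match is a description of the letters and not a site; the share of windows with it was 23.1% for genes that fell and 25% for those that did not pass.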

How the data were processed

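Heart RNA (50 ng of total RNA, amplified) and a common reference were hybridised to 2-colour Agilent arrays. Per the file headers, the deposited scanner files hold mean intensity and median background intensity per spot, and a log10 ratio of Cy5 over Cy3 made by Feature Extraction (version 9.1.3.1, and 9.5.3.1 for MuRF1 het MuRF2 null). The protocol in the labels names Cy3 alone, so the channel entries were followed. The deposited table of processed values holds log2 ratios, which the values show to be the Feature Extraction ratios minus each probe's median over the 16 arrays; this centring and direction were found from the values. The scanner file of double null 2 was saved with fewer digits than the others.

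From the intensities, background was corrected by normexp with offset 50, ratios were normalised by loess within arrays (limma 3.58.1, R 4.3.3), and spots were averaged per probe. Control spots (1639 of 45018) had weight 0. Of 41174 probes, 16809 were kept, a probe being kept if 4 or more of the 16 arrays had its Cy5 signal well above background. The probe with the highest mean Cy5 intensity stood for a gene; 48 of the 50 probes of the 35 genes were kept. Probes were named by accession (22951), symbol (6659) or synonym (3109) through RefSeq GRCm38.p6, and otherwise by the file's name (8455).

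A limma model with 1 mean per genotype over all 16 arrays, with eBayes and Benjamini-Hochberg adjustment over all genes, gave 6 comparisons at an adjusted p of 0.05. Differences are first group minus second, ± SE, with n = 4 unless stated. P-values measure the spread between hearts hybridised once each, and the number of arrays limits their precision. The procedure was tested on simulated data. The 35 genes and all lists were chosen with earlier results of these data known. All 35 are described by step, with values per array for those that passed in any comparison and for the 2 of each step with the largest difference of double null from wild type; from each list up to 4 genes with the smallest p were named, plus Ppara, except that 1 result is not reported here.

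Alternatives covered the authors' log ratios and processed values, offset 10, median centring, scaling between arrays, Cy5 alone, filters on dim probes, the mean over probes, array weights, brightness, slide, the replicate block and leaving out each array.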

Additional observations from a re-analysis of the deposited data

Results flagged for a closer look

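In 10 of 139 sets of 4 arrays tested (1 gene in 1 genotype), the highest or lowest array stood far from the other 3; chance alone picks about 1 in 20 such sets. Double null 2, the dimmest array, did so for Fabp3 (6.10, the others 5.01 to 5.11), Slc27a1 (0.34, the others 0.56 to 0.58) and Cpt1a (-0.53, the others -1.08 to -0.99). MuRF1 null MuRF2 het 1, also dim, did so for Slc27a1 (0.19, the others 0.88 to 1.02) and Cpt2 (1.82, the others 2.41 to 2.52).

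Wild type 2 was high for Hadha (2.41, the others 2.23 to 2.26). MuRF1 het MuRF2 null 3 was low for Hadha (2.10, the others 2.13 to 2.14), and MuRF1 het MuRF2 null 1 was low for Acot2 (0.68, the others 0.92 to 0.94). MuRF1 het MuRF2 null 4 was high for Eci1 (1.57, the others at 1.48) and Acaa1a (0.57, the others 0.37 to 0.40). These gaps lay in groups with a narrow spread, and their cause was not tested.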

How the results depend on the processing

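Between double null and wild type, 16 genes were lower. The count was 33 under median centring (6877 of all 12330 genes lower), 27 with array weights (4156 of 12330) and 0 on slide 1 alone. It was 13 to 18 on leaving out single arrays. Higher genes numbered 0, but 2 with array weights (3960 of 12330 genes higher), 1 with slide as a block (1117 of 12330) and 1 without both dimmest arrays (1797 of 12329). Leaving out single arrays gave 0 to 2 higher. Between MuRF1 null MuRF2 het and wild type, 0 were lower, but 24 under median centring (7365 of 12330 genes lower) and 3 with array weights (1080 of 12330). The count was 1 with Cy5 alone and 1 with the mean over probes (0 to 3 by single arrays). In the other direction 0 were higher, but 5 with array weights, beside 1154 of 12330 genes (0 to 2 by single arrays). Between MuRF1 het MuRF2 null and wild type, the 2 lower genes became 0 in the Feature Extraction log ratios, the value table, with offset 10 and with scaling. They became 1 without a filter, with the mean over probes and in the replicate block. They became 4 under median centring (2530 of 12329 genes lower) and 13 with array weights (1692 of 12329). They became 5 with brightness as a covariate (770 of 12329 genes lower) and 5 without both dimmest arrays (593 of 12329). Single arrays gave 0 to 4. Higher genes there were 1 with Cy5 alone (263 of 12329 genes higher) and 3 with array weights (1382 of 12329), and 0 to 0 by single arrays.

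Between double null and MuRF1 null MuRF2 het, the 8 lower genes became 0 under median centring, 5 with scaling, 4 without a filter and 5 in the replicate block. They became 27 with array weights (1611 of 12330 genes lower), 13 with brightness (171 of 12330) and 14 without both dimmest arrays (256 of 12329). Leaving out single arrays gave 0 to 16 lower and 0 to 0 higher. Between double null and MuRF1 het MuRF2 null, the 17 lower genes became 4 under median centring and 12 with brightness (14 to 17 by single arrays). The 2 higher became 0 in the Feature Extraction log ratios, the value table, with offset 10, median centring, scaling, no filter, the mean over probes and brightness. They became 1 in the replicate block (1503 of 12329 genes higher) and 7 with array weights (4086 of 12329). Single arrays gave 0 to 3 higher. Between the heterozygous groups, the 3 lower became 0 in the Feature Extraction log ratios, the value table, under median centring, without a filter, with brightness and without both dimmest arrays, and 1 in the replicate block (0 to 3). The 5 higher became 2 in the Feature Extraction log ratios and value table, 1 with offset 10 and 0 under median centring. They became 12 with array weights, beside 1795 of 12329 genes (0 to 8 by single arrays). The weights put 33.5 on double null 4 and at most 3.72 on any other array.

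Under median centring the median of all genes moved to -0.49 for double null, -0.34 for MuRF1 het MuRF2 null and -0.51 for MuRF1 null MuRF2 het against wild type. The number of the 35 differences below 0 moved from 30 to 35 in double null, 16 to 35 in MuRF1 null MuRF2 het and 21 to 35 in MuRF1 het MuRF2 null against wild type. It moved from 34 to 33 and from 23 to 33 in double null against MuRF1 null MuRF2 het and against MuRF1 het MuRF2 null, and from 11 to 31 between the heterozygous groups. Among these, the genes that changed sign and passed in at least 1 of the 2 settings were, between MuRF1 null MuRF2 het and wild type, Acaa1a -1.45, Acaa2 -1.61, Acot1 -0.79, Cpt1a -0.71, Echs1 -1.24, Eci1 -1.30, Eci2 -1.35, Ehhadh -0.34, Etfa -1.63, Etfb -1.45 and Mlycd -1.30. Between double null and wild type they were Acaa1a -1.40, Acat1 -1.27, Ehhadh -0.45 and Fabp3 -1.42. Between the heterozygous groups they were Acadl -0.12, Etfa -0.60, Etfdh -0.29, Fabp3 -0.35 and Mlycd -0.20. Between double null and MuRF1 het MuRF2 null they were Acot13 -0.33 and Fabp3 -0.48, with Fabp3 at -0.16 with Cy5 alone and -0.01 with brightness, and Cpt1a (-0.42) and Ehhadh (-0.45) with Cy5 alone. Acadl turned to 0.02 between MuRF1 het MuRF2 null and wild type with Cy5 alone. The cause of these changes was not tested.

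Over all genes, 2750 passed between double null and wild type, 6895 under median centring, 8116 with array weights, 1830 with brightness, 1411 under the strict filter, which tests fewer genes, and 0 on slide 1 alone. Same-numbered arrays did not all deviate together. Their correlations were -0.22 to 0.28 between double null and wild type and -0.13 to 0.33 between MuRF1 null MuRF2 het and wild type. So few correlations cannot exclude a pairing by number, and the hearts were treated as unpaired. The replicate block gave 14 lower genes between double null and wild type. Dim arrays limit the low genes, such as Ucp3, whose double null signal was not well above background.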
